A study of Homo sapiens with 4 samples.

Results

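MALAT1 and NEAT1 are neighbouring genes on chromosome 11 that give abundant long non-coding RNAs kept in the nucleus. They were examined in the peak lists of 2 RNA-binding proteins, HNRNPC and PABPC4. A peak, a stretch of RNA with piled-up sequence tags, was taken for a gene when the list named that gene by its NCBI Gene ID (378938 for MALAT1, 283131 for NEAT1) or when its centre lay in the gene on the same strand. Both rules chose the same peaks, which numbered 36 of the 72614 distinct positions in both lists. MALAT1 had 8 of the 9107 HNRNPC peaks and 6 of the 63507 PABPC4 peaks, and NEAT1 had 13 and 9.

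The lists came from CLIP, in which ultraviolet light bonds protein to RNA and an antibody recovers both, in MDA-MB-231, an established cell line from a human breast cancer. There were 2 samples for each protein, 4 in all, which shared the cell line and a dose of 400 mJ per cm2 at 254 nm. They differed in the antibody, against HNRNPC or PABPC4, in the library and in the RNase step. By the methods, HNRNPC complexes met RNase A on the beads, and PABPC4 lysates met RNase A and RNase I. HNRNPC libraries were made by CLIP and PABPC4 libraries by PAPERCLIP, whose reverse transcription is primed with oligo(dT) on A-rich RNA, normally the poly(A) tail. The methods also name oligo(dT) beads for recovering the HNRNPC-bound RNA. The samples of a protein were merged into 1 list, which leaves no replicate spread for any value, so no difference was tested and intervals are 95% Wilson intervals that cover counting error only.

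MALAT1 RNA sits at nuclear speckles and NEAT1 RNA is the scaffold of paraspeckles. NEAT1 gives a short form that ends in a poly(A) tail and a long form that reads through that site. The long form and MALAT1 have no poly(A) tail: RNase P, a tRNA-processing enzyme, cuts them in front of a tRNA-like RNA, and an A-rich tract encoded at the new end folds with U-rich motifs into a triple helix that protects it. HNRNPC is a mostly nuclear protein that binds runs of U, and PABPC4 is a mostly cytoplasmic poly(A)-binding protein.

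On hg38, MALAT1 (ENSG00000251562.11) runs along the plus strand and was taken from its RefSeq start to the RNase P cut, chr11:65497738-65506116, a length of 8379 nt. The tRNA-like MASCRNA follows at chr11:65506117-65506174. NEAT1 (ENSG00000245532.11) lies upstream on the same strand at chr11:65422798-65445540, a length of 22743 nt. Its short form ends at the latest at 65426513, after 3716 nt, where GENCODE annotates 5 ends between 65426385 and 65426513. Both genes are annotated as lncRNA, so every peak below lies in non-coding exon sequence or in the span of a long non-coding transcript, and 0 peaks in either list lay on the opposite strand within them.

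The 3 ends differ in their letters, given here as the genomic plus strand (T for U). Capitals mark the A-rich tract up to the cut for both RNase P-cut ends, and the poly(A) signal AAUAAA for the short form.
MALAT1 end, chr11:65506087-65506116: ttttctagcttAAAAAAAAAAAAAGCAAAA
NEAT1 long end, chr11:65445511-65445540: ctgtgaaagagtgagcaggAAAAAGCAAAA
NEAT1 short end, chr11:65426496-65426525: cagcacaAATAAAgtttgagttctaaactc
The last 11 nt, AAAAAGCAAAA, are the same in MALAT1 and long NEAT1. MALAT1 has 13 A in a row in front of the GC and NEAT1 has 5.

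PABPC4 peaks also ended at 5 internal A runs of 10 or more in NEAT1, shown here with the end of the tallest PABPC4 peak of MALAT1. Capitals mark the longest A run.
MALAT1, peak of 6176 tags, chr11:65499973-65500002: aaaatagcactgAAAAAAtgaggaaattat
NEAT1, peak of 80 tags, chr11:65428825-65428854: tctaatatgtAAAAAAAAAAAgtttactgt
NEAT1, peak of 697 tags, chr11:65433002-65433031: attgctgcAAAAAAAAAAAAAAccacaaac
NEAT1, peak of 518 tags, chr11:65439663-65439692: ctttgtttAAAAAAAAAAAAAAgtgacttg
NEAT1, peak of 706 tags, chr11:65440470-65440499: caaaaacgacAAAAAAAAAAcaaaacagaa
NEAT1, peak of 273 tags, chr11:65440839-65440868: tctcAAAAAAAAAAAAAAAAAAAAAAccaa

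The height of a peak, the number of pooled tags at its summit, was the signal in the lists, and heights were read only within a list. MALAT1 held the tallest HNRNPC peak of all, at 629 tags, and its tallest PABPC4 peak of 6176 tags placed it 10th of 13189 genes. NEAT1 ranked 71st of 4098 genes for HNRNPC, with a tallest peak of 97 tags, and 301st for PABPC4, with 706 tags. In the median gene the tallest peak had 11 tags (HNRNPC) or 78 tags (PABPC4). By number of peaks, MALAT1 was 140th and NEAT1 67th among genes with an HNRNPC peak, and they were 3048th and 1785th for PABPC4. Number and height thus gave NEAT1 much the same place for HNRNPC, while MALAT1 ranked lower by number in both lists and NEAT1 in the PABPC4 list.

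**Figure D1:**
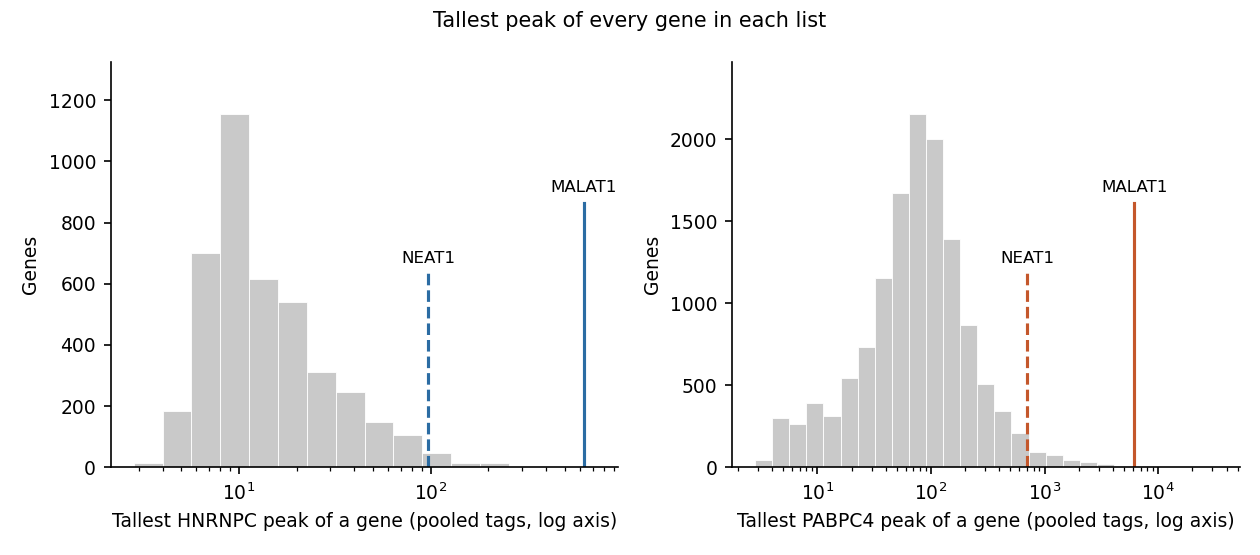
Number of genes (vertical axis) by the height of their tallest peak in pooled tags (horizontal log axis) for HNRNPC (left) and PABPC4 (right), with MALAT1 (solid line) and NEAT1 (dashed line) marked. MALAT1 lies at 629 and 6176 tags and NEAT1 at 97 and 706 tags, against gene medians of 11 and 78 tags.

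Height follows the amount of an RNA as well as its binding, and the lists hold no RNA level, so binding and abundance cannot be told apart, nor could the cell line be checked by its markers. The lists give for each gene the height expected by chance, which rises with the tags in the gene. That expected height was 15.8 tags for MALAT1 and 6.69 tags for NEAT1 in the HNRNPC list, where the median gene had 0.13, and these were the 4th and 7th highest of 4098. In the PABPC4 list it was 101 tags for MALAT1 and 7.94 tags for NEAT1, against a median of 0.18. The tallest HNRNPC peak of MALAT1 was 39.8 times its expected height and that of NEAT1 14.5 times. The tallest PABPC4 peak was 60.9 times expected in MALAT1 and 88.9 times in NEAT1, so the order of both genes for PABPC4 turned once height was set against expectation. How gene length, 8379 nt for MALAT1 and 22743 nt for NEAT1, enters the expected height was not examined.

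PABPC4 height on MALAT1 lay mostly in its 5′ part, which held 3 of the 6 peaks. The tallest, at chr11:65499447-65499989, reached 6176 tags and held 60.1% of the summed PABPC4 height of the gene. It began 1710 nt from the gene start and was 543 nt wide, in a list whose median width was 47 nt and in which 5 peaks were wider than 300 nt. A neighbour of 1641 tags lay just upstream at chr11:65499133-65499349. The third tallest, of 1485 tags, lay at chr11:65502736-65502991. Then came the peak of 469 tags at the cut end of the gene, a peak of 294 tags at chr11:65501899-65501974 and a peak of 205 tags at chr11:65500095-65500181. When the gene was divided into 3 equal parts and each peak counted whole in a single part, 78.1% of PABPC4 height lay in the 5′ part, 17.3% in the middle and 4.57% in the 3′ part.

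Most of these peaks covered sequence richer in A than the gene. The bases under the peak of 6176 tags were 48.6% A and those under the peak of 1641 tags 42.4% A, while the whole of MALAT1 was 30.6% A. The share was not tied to height, with 43.7% A under the lowest peak, of 205 tags, 41.4% under that of 1485 tags, 31.6% under that of 294 tags and 28.2% under that of 469 tags. Stretches were called A-rich where 6 A followed each other or 7 of 10 bases were A. The tallest peak touched 13 of the 54 such stretches in MALAT1, the longest A run among them being 6, and its neighbour touched 5. The A under these peaks came in many short runs, whereas 5 of the 9 NEAT1 peaks ended at a single run of 10 or more.

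**Figure D2:**
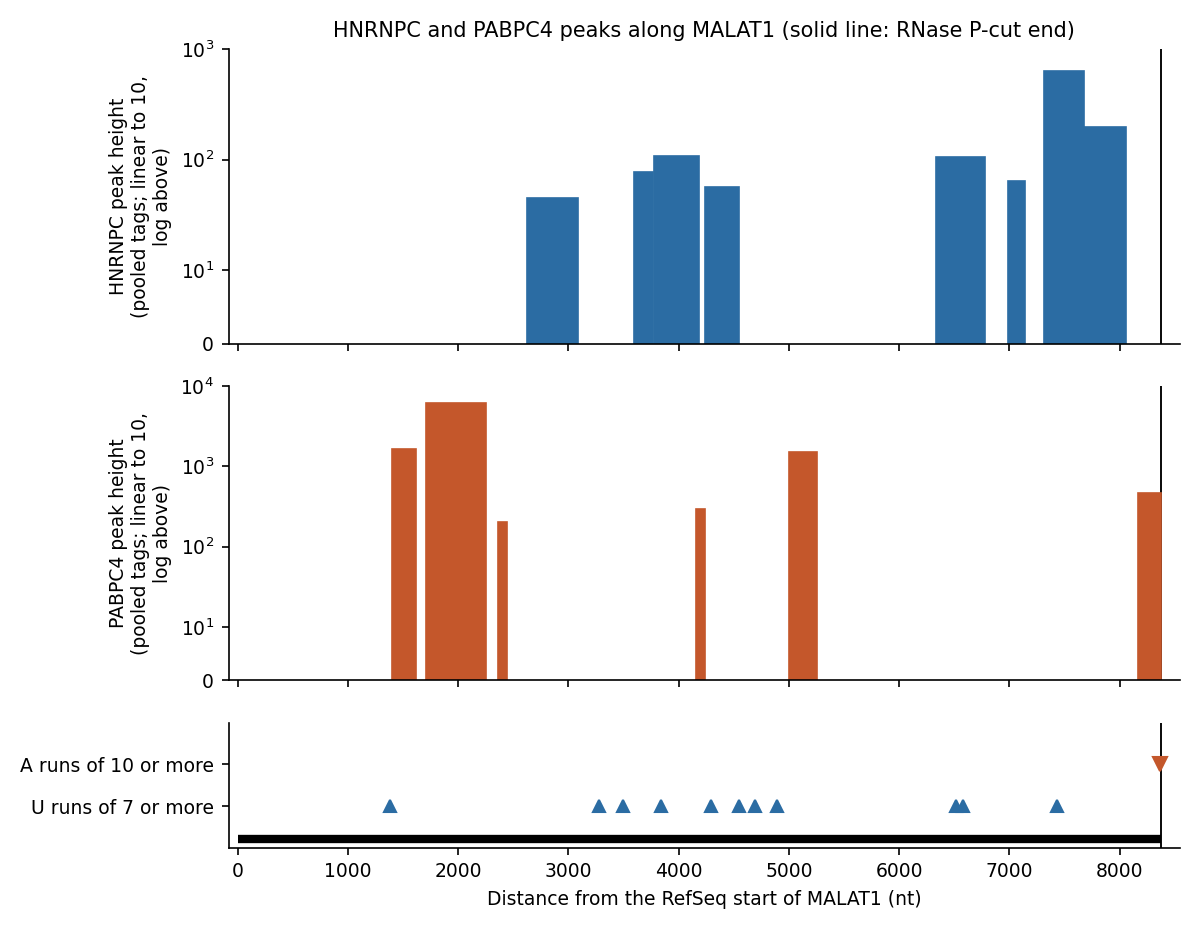
Peaks along MALAT1 by distance from its RefSeq start in nt, with bar width the peak's width and bar height its height in pooled tags (linear to 10, log above) for HNRNPC (top) and PABPC4 (middle); triangles at the bottom mark A runs of 10 or more and U runs of 7 or more, and the vertical line the RNase P cut. PABPC4 height lies mostly near the 5′ end and HNRNPC height near the 3′ end, and the single long A run sits at the cut, under a PABPC4 peak of 469 tags.

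The tail-less MALAT1 end carried a PABPC4 peak. It lay at chr11:65505908-65506113, reached 469 tags, which was 4.63 times its expected height, and ended 3 nt before the cut. The run of 13 A printed above lies in its last bases, at 65506098-65506110. The peak held 4.57% of the PABPC4 height of the gene and ranked 608th in the list. How much of it came from priming on the encoded A run and how much from added A was not tested, as peak positions alone do not separate them.

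At the long NEAT1 end, by contrast, 0 peaks of either protein lay within 500 nt. The nearest PABPC4 peak ended 4700 nt upstream and the nearest HNRNPC peak 539 nt upstream. The tract there holds the same last 11 nt as MALAT1 but a run of 5 A where MALAT1 has 13. How much long NEAT1 reached this end in these cells was not measured in the lists. Past the short end, 11 HNRNPC peaks lay in the 19.027 kb found only in the long form. Why no peak lay at the cut was not tested.

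The short NEAT1 end carried a PABPC4 peak over a poly(A) signal. It lay at chr11:65426446-65426525, was 80 nt wide, reached 435 tags, 54.8 times its expected height, and ended 12 nt past the farthest annotated end. AAUAAA began at 65426503, 22 nt before the peak's end, and the longest A run in its last 50 nt or the 50 nt downstream was 3. It was the fourth tallest PABPC4 peak of NEAT1 and held 15.3% of the gene's PABPC4 height. The sequence shared by both forms, 3.716 kb with this end in it, had 2 PABPC4 peaks that summed to 478 tags. The part found only in the long form had 7 that summed to 2362 tags.

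Most of the PABPC4 height on NEAT1 lay past the short end, at internal A runs. The tallest peak, of 706 tags at chr11:65440380-65440495, ended 6 nt after a run of 10 A that stands in a 51-nt A-rich stretch. The peak of 697 tags at chr11:65432925-65433026 ended 3 nt after a run of 14 A. A run of the same length stood 1 nt before the end of the peak of 518 tags at chr11:65439455-65439685. Both remaining long runs lay just beyond a peak instead. The run of 22 A started 3 nt after the peak of 273 tags at chr11:65440731-65440840, and the run of 11 A started 2 nt after the peak of 80 tags at chr11:65428775-65428833.

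Across both genes there were 6 runs of 10 or more A, and a PABPC4 peak ended at each, inside 6 nt of an edge of the run. For 4 of them the peak ended after the run, with heights of 469 to 706 tags, and for 2 before it, with heights of 80 and 273 tags. Height did not follow run length, since the longest run, of 22 A, had the second lowest peak. For shorter runs the counts turned on whether a stretch inside a peak was included. Of NEAT1 stretches whose longest run was 6 to 9 A, 2 of 7 had a PABPC4 peak that ended in the stretch or up to 50 nt upstream, and of those with 5 or fewer, 1 of 43 did. A peak near more than 1 stretch was counted at each. The stretch among the 43 lay by the peak of 80 tags, and 1 of the 2 by the peak of 518 tags. Both peaks were also counted at their long runs. In MALAT1 the numbers were 2 of 11 and 4 of 42, with the peak of 1485 tags counted at more than 1 stretch. In all, 7 of 54 stretches in MALAT1 (interval 6.42 to 24.4%) and 8 of 55 in NEAT1 (14.5%, 7.56 to 26.2%) had such a peak. With stretches inside a peak counted as well, the numbers became 29 of 54 and 12 of 55. In MALAT1 these were 21 of 42 stretches with a longest run of 5 or fewer and 7 of 11 with 6 to 9. They also included the run of 13 A. The tallest MALAT1 peak alone touched 13 stretches.

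**Figure D3:**
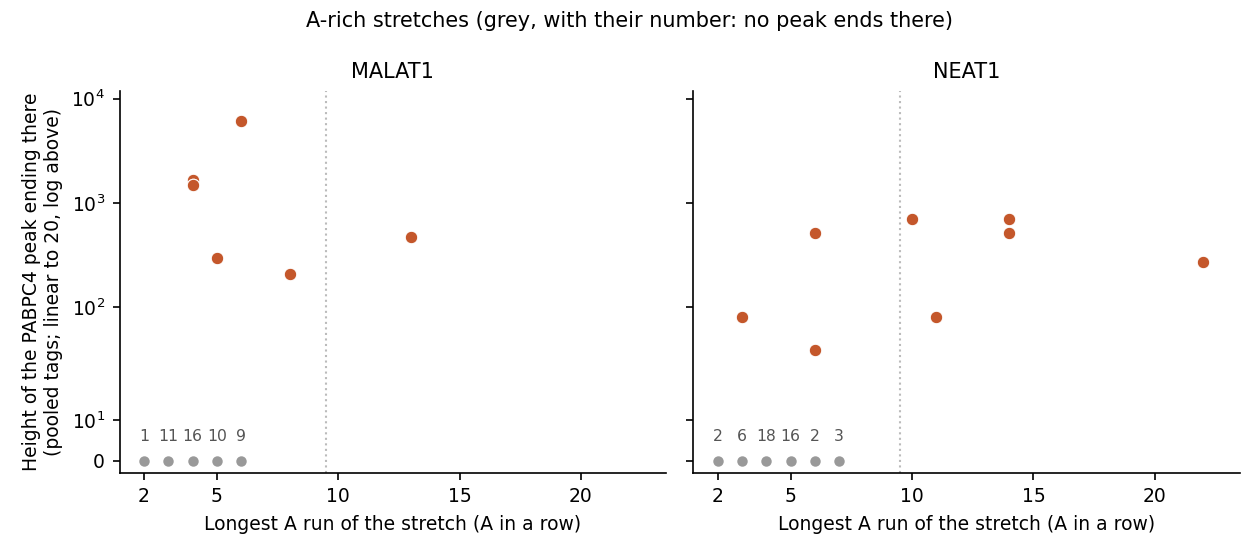
Each A-rich stretch of MALAT1 (left) and NEAT1 (right) by its longest A run (horizontal) and the height in pooled tags of the PABPC4 peak that ended in it or up to 50 nt upstream (vertical, linear to 20 and log above); grey points at 0, with their number, had no such peak, and the dotted line separates runs of 10 or more. A peak near more than 1 stretch is drawn at each. All 6 stretches to the right of the line have a peak, of 80 to 706 tags, while the tallest peak, of 6176 tags in MALAT1, stands at a run of 6.

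Seen from the peaks, the 50 nt downstream held A-rich sequence for 3 of 6 MALAT1 peaks and 5 of 9 NEAT1 peaks, together 8 of 15 (53.3%, 30.1 to 75.2%), and for 58.5% of all PABPC4 peaks. That is near the background and says nothing particular about these genes. Most of the long runs, however, stood inside the last bases of a peak. With the last 50 nt of the peak read as well, a window chosen after seeing the data, 14 of 15 peaks had an A-rich stretch (93.3%, 70.2 to 98.8%), against 75.9% of the list. By comparison, 41.2% of MALAT1 positions and 19.4% of NEAT1 positions had such a stretch within 50 nt on either side. The 14 include the short NEAT1 end, where the A-rich stretch overlaps the poly(A) signal.

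The exception was the PABPC4 peak at the NEAT1 start. It covered the gene's first 47 nt, chr11:65422798-65422844, with 43 tags, and its sequence was 14.9% A. The 2 low NEAT1 peaks not yet described were those of 49 tags at chr11:65428630-65428676, 48.9% A, and of 39 tags at chr11:65440005-65440051, with 6 A in a row 42 nt downstream. These 3 peaks, of 39 to 49 tags, lay just above the list's median height of 38 tags, and the other 6 NEAT1 peaks had 80 to 706 tags.

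AAUAAA or AUUAAA lay in the last 40 nt of 2 of 15 (13.3%, 3.74 to 37.9%), the short NEAT1 end and the MALAT1 peak of 1485 tags, and in 18.6% of all PABPC4 peaks, so the share is near the background. With single-base variants of AAUAAA allowed, it was 100% of the MALAT1 peaks and 66.7% of the NEAT1 peaks, and 40.5% of the list. AAAAAA differs from AAUAAA by a single base, so a run of A can count as a signal here. These shares are therefore not separate from the A-rich stretches described above. In the MALAT1 peak the AAUAAA began 9 nt before the peak's end, inside a 32-nt A-rich stretch that runs past that end. The peak ended 3125 nt upstream of the RNase P cut and 4 nt before an end that 4 GENCODE transcripts share. The tallest MALAT1 peak ended 7 nt past an end of 1 transcript and had neither signal in its last 40 nt, with 3 AUUAAA farther upstream in it. GENCODE lists 39 ends for MALAT1, so a nearby annotated end is a weak mark in this gene. Read from the signals, 1 of 17 AAUAAA or AUUAAA in MALAT1 and 1 of 14 in NEAT1 lay in the last 40 nt of a PABPC4 peak, and 4 and 1 lay anywhere in a peak.

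**Figure D4:**
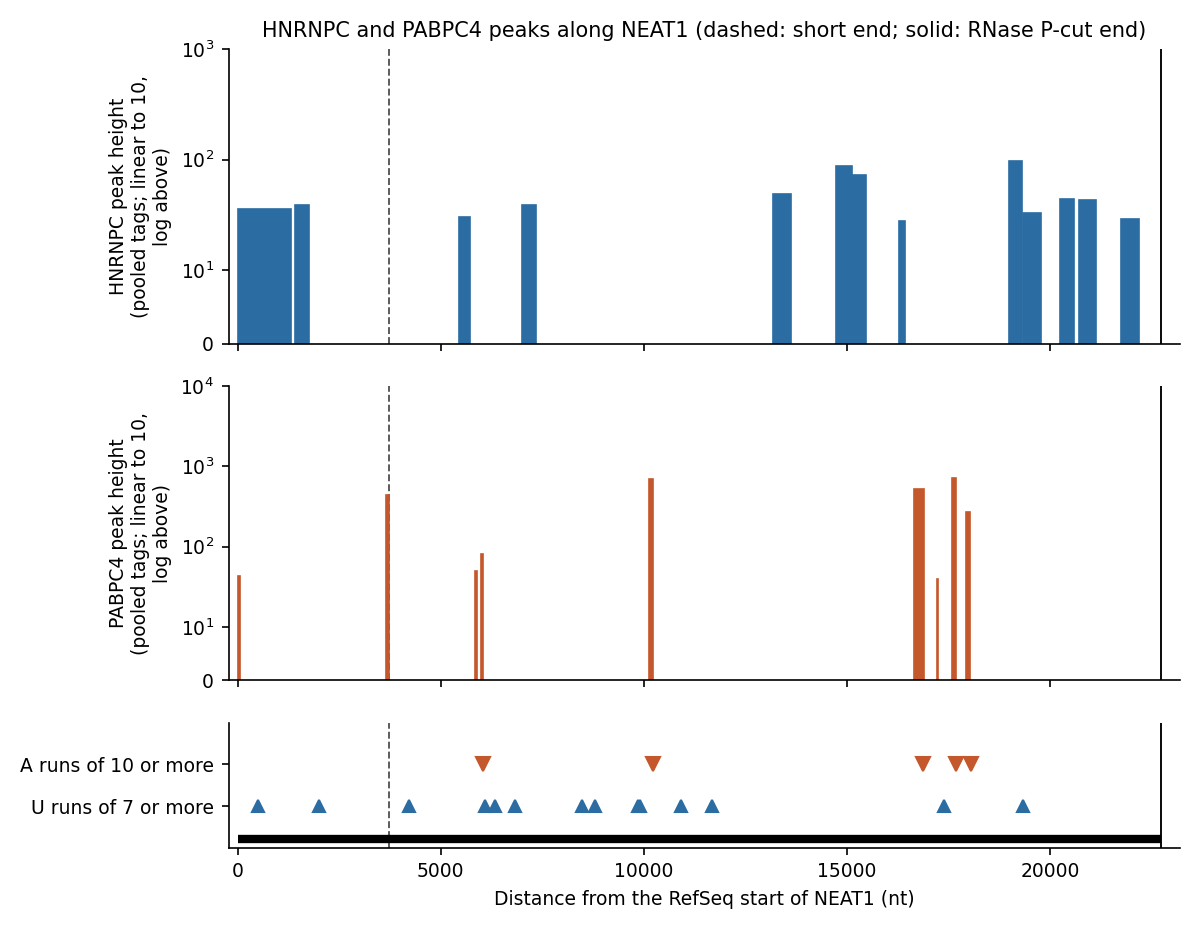
Peaks along NEAT1 by distance from its RefSeq start in nt, drawn as for MALAT1, with the short end (dashed) and the RNase P cut of the long form (solid). A PABPC4 peak of 435 tags stands at the short end, 5 others stand at the 5 long A runs, and 0 peaks stand at the cut of the long form.

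HNRNPC peaks on MALAT1 leaned to the other end of the RNA. The peak of 629 tags, at chr11:65505055-65505411, held 49.1% of the summed HNRNPC height of the gene. The next, of 197 tags, began 4 nt after it, at chr11:65505415-65505796, and ranked 7th of all HNRNPC peaks. The other peaks among the 5 tallest had 108 tags at chr11:65501515-65501925, 105 tags at chr11:65504070-65504513 and 78 tags at chr11:65501329-65501505. The 3 lowest had 45 to 64 tags, all above the list's median of 11. By equal parts of the gene, 0% of HNRNPC height lay in the 5′ part, 22.4% in the middle and 77.6% in the 3′ part, where PABPC4 had 78.1, 17.3 and 4.57%. The lowest HNRNPC peak, of 45 tags, crosses the border of the 5′ part and was counted whole in the middle.

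HNRNPC peaks on NEAT1 were lower and more even. The tallest, of 97 tags, lay at chr11:65441786-65442115, followed by 88 tags at chr11:65437535-65437912, 72 tags at chr11:65437917-65438272, 49 tags at chr11:65435966-65436414 and 44 tags at chr11:65443050-65443399. The remaining 8 had 28 to 43 tags. All 5 of the tallest lay past the short end, in the long form only. Per kb, HNRNPC had 0.538 peaks in the shared sequence and 0.578 in the long-only sequence. The 3′ part of the gene held 55.2% of HNRNPC height and 54.1% of PABPC4 height, and here both proteins had most of their height in the same part.

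The HNRNPC peaks on both genes were wide. Their median width was 369.5 nt on MALAT1 and 356 nt on NEAT1, against 101 nt for the list, in which 155 peaks were wider than 300 nt. The widest, at chr11:65422804-65424108 near the NEAT1 start, covered 1305 nt with 36 tags. Together the peaks covered 32.2% of MALAT1 and 24.5% of NEAT1, where PABPC4 peaks covered 16.5% and 3.69%. By the authors' p-value, 7 of 8 MALAT1 peaks and 10 of 13 NEAT1 peaks were at or below 0.001, as were 71.4% of all HNRNPC peaks, so these counts are near the background.

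Runs of U were looked for because HNRNPC binds them. For the tallest peak of each gene, the longest U run in the peak or 50 nt either side is shown in capitals (T for U).
MALAT1, peak of 629 tags, chr11:65505156-65505185: gggcgctaagccTTTTTTTaagatttttca
NEAT1, peak of 97 tags, chr11:65442120-65442149: gttttgaTTTTTTTTTTTTTTTTaatggtc
The NEAT1 run of 16 U is the longest in either gene and lies between the peak of 97 tags and the next, of 33 tags at chr11:65442133-65442572, whose start it overlaps. Inside the peak of 97 tags the longest run was 5 U. At the second tallest peaks, the longest run in the same window was 5 U in MALAT1 (197 tags) and 4 U in NEAT1 (88 tags). The longest run in MALAT1, of 13 U, lies inside the peak of 105 tags. A run of 5 or more U lay in or up to 50 nt upstream of 7 of 8 MALAT1 peaks and 8 of 13 NEAT1 peaks, together 15 of 21 (71.4%, 50.04 to 86.2%), and of 39.7% of the list. The peaks here were also wider than the list's, and among all windows of these genes as wide as their own peaks, 75.6% in MALAT1 and 67.9% in NEAT1 held such a run.

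Most U runs of these RNAs had no HNRNPC peak. In NEAT1, 11 of 89 runs of 5 or more U (12.4%, 7.04 to 20.8%) lay in or within 50 nt of an HNRNPC peak, although 29.2% of its positions did. In MALAT1 it was 15 of 39 (38.5%, 24.9 to 54.1%), with 38.9% of positions. Of runs of 7 or more U, 6 of 11 in MALAT1 and 2 of 14 in NEAT1 were near a peak. A run of 13 U in NEAT1 and a run of 12 U in MALAT1 had no HNRNPC peak within 50 nt. Whether reads map less well to such runs was not tested.

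A further sequence was common in the HNRNPC list but missing from these peaks, and whether it reflects binding or the making of the libraries was not tested. GUGUCA, a 6-mer, stood at the 3′ end (the last 30 nt or the next 10) of 0 of 21 HNRNPC peaks on these genes, which allows a share of up to 14.3% when 3 peaks are taken as the limit of a count of 0 (15.5% by the Wilson interval), and of 38% of all HNRNPC peaks.

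Peaks of both proteins overlapped at 2 places. The HNRNPC peak of 108 tags on MALAT1 overlapped the PABPC4 peak of 294 tags by 27 nt, and the next HNRNPC peak, of 56 tags at chr11:65501975-65502284, began at the base after that PABPC4 peak. At the NEAT1 start, the 1305-nt HNRNPC peak overlapped the PABPC4 peak of 43 tags. These 2 of 21 HNRNPC peaks (9.52%, 2.65 to 28.9%) stand beside 0.944% of the list, whose peaks were narrower. The list share is not matched for PABPC4 coverage, which was 16.5% of MALAT1 and 3.69% of NEAT1. Whether 2 is more or fewer than peaks of these widths would give in these genes was not tested. The tallest peaks of each protein did not overlap. The median gap from an HNRNPC peak to the nearest PABPC4 peak was 285.5 nt on MALAT1 and 1292 nt on NEAT1, and 6 of 8 and 3 of 13 lay within 500 nt.

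In 22 other chosen long non-coding RNA genes, nuclear and cytoplasmic, the tallest peaks were lower than the tallest of MALAT1 and NEAT1, though not lower than every NEAT1 peak. Of all RefSeq lncRNA genes, 1.05% had an HNRNPC peak and 5.54% a PABPC4 peak, and of all protein-coding genes 19% and 59.2%. Of the 22 chosen lncRNA genes, 10 had an HNRNPC peak, the tallest 83 tags in TERC, the RNA of telomerase, and 16 had a PABPC4 peak, the tallest 495 tags in LINC-PINT. PVT1 had 27 HNRNPC and 42 PABPC4 peaks, more than either MALAT1 or NEAT1, but none above 79 and 241 tags. Among 15 genes of paraspeckle proteins and of NEAT1 end choice, 11 had an HNRNPC peak, up to 91 tags in DAZAP1, and 14 a PABPC4 peak. Of 13 genes of RNase P, of RNase Z (ELAC2), which trims tRNA 3′ ends, and of METTL16, an RNA methyltransferase that binds the MALAT1 triple helix, 0 had an HNRNPC peak and 12 had a PABPC4 peak, up to 209 tags in RPP30.

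The genes whose peaks were most like those of each RNA were found by Euclidean distance over 4 values, the log2 of 1 plus the number of peaks and of 1 plus the tallest height in each list, among 13327 other genes. For NEAT1, those among the 5 nearest included LASP1, ACTN1, MYH9 and PLEC, genes of cytoskeletal proteins, at distances of 0.810 to 0.939. For MALAT1 nothing was as near. The closest, at 2.88, was the mitochondrial ribosomal RNA gene RNR2, whose tallest HNRNPC peak had 299 tags and whose tallest PABPC4 peak, of 24717 tags, led that list. HMGA1, PTTG1IP, ACTN4 and NIBAN2 came after it at 3.08 to 3.43.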

How the data were processed

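The analysis used 1 deposited peak list per protein, each merged from 2 samples. As the study's methods describe for HNRNPC, the authors collapsed reads by molecular identifier, extracted the identifier (UMI-tools), trimmed reads (cutadapt), aligned them to hg38 (BWA 0.7.17), removed duplicates and called peaks with the valley-seeking mode of the CLIP Tool Kit. For PABPC4 such steps were not described separately. The labels and methods give irCLIP for HNRNPC and the deposited list's name gives HITS-CLIP, which was not settled. The signal the authors deposited for each peak is its height in tags, not scaled to depth. Library read totals were not analysed here.

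Positions listed more than once were counted once. Sequence came from hg38, and annotation from GENCODE 44 and RefSeq, with Python 3.11.15, pysam 0.24.0 and SciPy 1.17.1. The counting was tested on simulated data. Peaks described in full were the 5 tallest per gene and list, those within 500 nt of the 3 RNA ends and those that overlap. The members and lists were chosen with earlier results of these data known. Alternatives were other p-value, height, window, motif and run-length limits. Some genes that these rules name are not reported here.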

Additional observations from a re-analysis of the deposited data

How the results depend on the processing

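Of 72 alternative values for 13 results, 56 stayed within the 95% Wilson interval of a share or within 1.5 times a count and 16 moved farther, and 6 of the 72 were added after seeing the data. The lowest HNRNPC counts were 7 and 10 at a p-value of at most 0.001. Because those intervals are wide, values inside them still varied in NEAT1: A-rich downstream sequence fell to 33.3% with 20 nt, poly(A) signals rose to 22.2% with 20 nt added downstream, and stretches with a peak rose to 25.5% with those inside a peak counted (added). A-rich sequence downstream of PABPC4 peaks moved in MALAT1 from 50% to 100% with the last 10 nt of the peak and 20 nt downstream, and to 100% with 50 nt of each (added), and fell to 16.7% with 6 A in a row alone and 16.7% with 8 A. In NEAT1 it moved from 55.6% to 88.9% with 50 nt of each (added) and to 22.2% with 8 A, where most long runs lie in the last bases of a peak. With single-base variants of AAUAAA, for which a run of A can count, poly(A) signal shares moved to 100% in MALAT1 and 66.7% in NEAT1. The share of A-rich stretches with a PABPC4 peak moved in MALAT1 to 50% with 8 A in a row and 55.6% with stretches inside a peak counted (added), and in NEAT1 to 35.7% with 6 A and 33.3% with 8 A. The U run share of HNRNPC peaks moved to 90.5% with 4 U, 42.9% with 6 U and 28.6% with the upstream 50 nt alone. The share of NEAT1 height at the short end became 0% with a 10 nt limit, because that peak ends 12 nt past the annotated end. No paired analysis was possible because each deposited list merges its replicates, and for the same reason no replicate could be left out. Heights carry no read depth.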

Other observations

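The study's quantitative PCR primers for both RNAs were matched to hg38. The MALAT1 pair lies at chr11:65500640-65500787, inside the lowest HNRNPC peak of that gene, of 45 tags, and outside its PABPC4 peaks. The NEAT1 pair lies at chr11:65436050-65436162, inside the HNRNPC peak of 49 tags and past the short end, so it reads the long form only.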
